A study of Mus musculus with 12 samples.

Results

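NRF2, its inhibitor KEAP1 and 6 of its antioxidant target genes were followed in Min6, a cell line from a mouse insulinoma that is widely taken to stand for beta cells of the pancreas. The genes were chosen by name: Nfe2l2, Keap1, Nqo1, Hmox1, Gclc, Gclm, Slc7a11 and Srxn1. Each was represented by 1 probe set with a single gene symbol on the Affymetrix Mouse Gene 1.0 ST array, so that 8 of 8 were measured, out of 19938 genes with such a probe set. RNA was taken after 3 culture periods of 5 days each, from 12 samples in 3 groups of 4. In the return condition (RC) cells spent the second period without serum at 5% oxygen and the last one back in serum at 20% oxygen. Under defined conditions (DC) they spent both later periods, 10 days, without serum at 5% oxygen. Under classic conditions (CC) they stayed in serum at 20% oxygen throughout.

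All groups began in the serum medium, which held 15% fetal calf serum and 70 µM 2-mercaptoethanol, a reducing agent. The recipe given for the serum-free medium names apo-transferrin (100 µg/mL), progesterone (20 nM), putrescine (100 µM) and selenite (30 nM) and does not name 2-mercaptoethanol. Serum, oxygen and these additions changed together and cannot be told apart here. Both media held the same antibiotics. The quadruplicates came from a single experiment on 1 cell line, so a p-value here weighs a difference against the spread of samples within that experiment, which may be technical.

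NRF2, the product of Nfe2l2, is a basic leucine zipper transcription factor that pairs with small MAF proteins and binds antioxidant response elements in the DNA. In unstressed cells KEAP1 presents it to a CUL3 ubiquitin ligase and it is degraded; electrophiles and oxidants modify cysteines of KEAP1, and NRF2 then builds up in the nucleus. Much of its control is therefore of the protein, which arrays of RNA do not see. Beta cells are known for low levels of several enzymes that break down peroxides.

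RefSeq promoter sequences (build GRCm38.p6) were at hand for 6 of the 8 genes: Nfe2l2, Keap1, Nqo1, Gclm, Slc7a11 and Srxn1. The 250 bases before the annotated start are shown for Nqo1, the member that passed the test below, and for 3 target genes that did not and that hold a searched motif there. Capitals mark the antioxidant response element core TGACNNNGC, the site of NRF2 with small MAF proteins TGANTCAGC, and the amino acid response element TGATGCAA, which ATF4 binds, on either strand.
Nqo1, chr8:107403206-107403455, minus strand: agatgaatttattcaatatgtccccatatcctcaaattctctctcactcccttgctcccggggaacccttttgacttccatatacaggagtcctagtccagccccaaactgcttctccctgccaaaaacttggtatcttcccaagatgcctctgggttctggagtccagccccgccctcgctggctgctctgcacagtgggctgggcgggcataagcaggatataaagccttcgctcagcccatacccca
Srxn1, chr2:152105274-152105523, plus strand: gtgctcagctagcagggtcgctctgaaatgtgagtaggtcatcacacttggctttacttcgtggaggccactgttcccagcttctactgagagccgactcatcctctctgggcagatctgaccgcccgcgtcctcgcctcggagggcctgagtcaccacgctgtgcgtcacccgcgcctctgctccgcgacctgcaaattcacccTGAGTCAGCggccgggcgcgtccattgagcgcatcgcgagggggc
Gclm, chr3:122245307-122245556, plus strand: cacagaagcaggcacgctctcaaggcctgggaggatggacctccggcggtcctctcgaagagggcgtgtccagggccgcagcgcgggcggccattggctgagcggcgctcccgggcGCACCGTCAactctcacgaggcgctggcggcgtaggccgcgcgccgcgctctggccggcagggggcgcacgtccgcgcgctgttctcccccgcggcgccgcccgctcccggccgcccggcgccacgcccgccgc
Slc7a11, chr3:50443614-50443863, minus strand: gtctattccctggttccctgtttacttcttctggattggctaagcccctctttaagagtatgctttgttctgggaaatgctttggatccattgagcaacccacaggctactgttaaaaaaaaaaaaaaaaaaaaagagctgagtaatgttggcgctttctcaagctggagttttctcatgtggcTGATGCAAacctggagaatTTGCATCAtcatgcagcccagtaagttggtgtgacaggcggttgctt

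The core TGACNNNGC was found in 3 of the 6 promoter windows (250 bases before to 50 after the start; Nfe2l2, Srxn1 and Gclm), against 12.5% of 27025 promoters of the same length. The Srxn1 core lies after the start and is not shown. TGANTCAGC was found only in Srxn1, against 1.17% of promoters; it overlaps an AP-1 motif, TGANTCA, which was found only in Srxn1 among the 6 and in 7.93% of promoters. TGATGCAA was found on both strands in Slc7a11 and in no other of the 6 windows, against 0.929% of promoters. The Nqo1 and Keap1 windows hold none of these letters, and bases further from the start were not searched for any gene.

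The arrays gave 1 log2 expression value per probe set, the median of an array lying between 7.92 and 8.05 and its interquartile range between 2.42 and 2.75. Array RC 3 stood apart from its group, with a mean correlation of 0.976 with the other RC arrays, against 0.989 to 0.990 for each of those. Of the beta cell markers, 10 of 11 read above the median of all values (7.99), as did 4 of 5 markers of other islet cells, 4 of 6 of fibroblasts, 2 of 6 of immune cells, 0 of 6 of exocrine and ductal cells and 0 of 5 of endothelial cells. Among the other islet markers Sst, the somatostatin gene, was lower in DC than in CC (-1.26, limma adjusted p = 0.0066) and higher in RC than in DC (1.70, adjusted p = 0.00195). The other 4 measured markers of that list were not called in either comparison, where its medians were -0.04 and -0.01. Of the 11 beta cell markers 2 were called higher in DC than in CC, where 2.97% of the 19938 genes were. In RC against DC 2 were called lower, where 1.71% of genes were, and 0 were called in RC against CC. The mean level of the fibroblast markers was 7.80 to 8.23 on RC arrays, 7.84 to 8.20 on DC arrays and 7.75 to 7.98 on CC arrays. Their median DC minus CC value was 0.17, against 0.04 over all probe sets, and 0 of 6 were called in any comparison. This was not particular to them: the median was 0.17 for immune, 0.14 for exocrine and ductal and 0.13 for endothelial markers. For the beta cell markers it was 0.01. The part of other cell types in the members' values was not tested. No detection calls were used, so no level could be set against its background. The members' probe sets were 10483809 for Nfe2l2 on chromosome 2, 10591482 for Keap1 on chromosome 9, 10581538 for Nqo1 on chromosome 8, 10572897 for Hmox1 on chromosome 8, 10587266 for Gclc on chromosome 9, 10495763 for Gclm on chromosome 3, 10498024 for Slc7a11 on chromosome 3 and 10477061 for Srxn1 on chromosome 2. The CC arrays fell into pairs: on 63.5% of all 35556 probe sets arrays CC 1 and CC 2 did not overlap CC 3 and CC 4, and so it was for 7 of the 8 members.

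Nqo1 was the only member that passed the test, at a limma adjusted p under 0.05, with all arrays in the fit. It encodes a quinone reductase that is a standard readout of NRF2 activity. Its level was 8.25, 7.92, 8.01 and 8.25 on arrays RC 1 to RC 4, 8.52, 8.63, 9.04 and 8.73 on DC 1 to DC 4, and 8.34, 8.27, 7.82 and 7.89 on CC 1 to CC 4. Every DC array was above every RC and every CC array, and the RC and CC arrays lay in the same range. Nqo1 rose in DC by 0.65 ± 0.14 on the log2 scale against CC (SE, n = 4 per group; 1.57-fold, 95% interval 1.27 to 1.94; limma adjusted p = 0.0149). In RC it fell by 0.62 ± 0.14 on that scale against DC (limma adjusted p = 0.0367). The RC minus CC difference was 0.02, with a 95% interval of -0.28 to 0.33 (adjusted p = 0.96), and its sign turned to -0.02 after centring every array on the same median. The rise in DC did not pass without CC 4 (adjusted p = 0.0511), where the range over all alternatives was 0.00105 to 0.0701. The fall in RC did not pass without RC 1, RC 2, RC 4, DC 2, DC 3 or DC 4, each left out alone, with an adjusted p of up to 0.126 there and of 0.0112 to 0.139 over all alternatives.

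**Figure D1:**
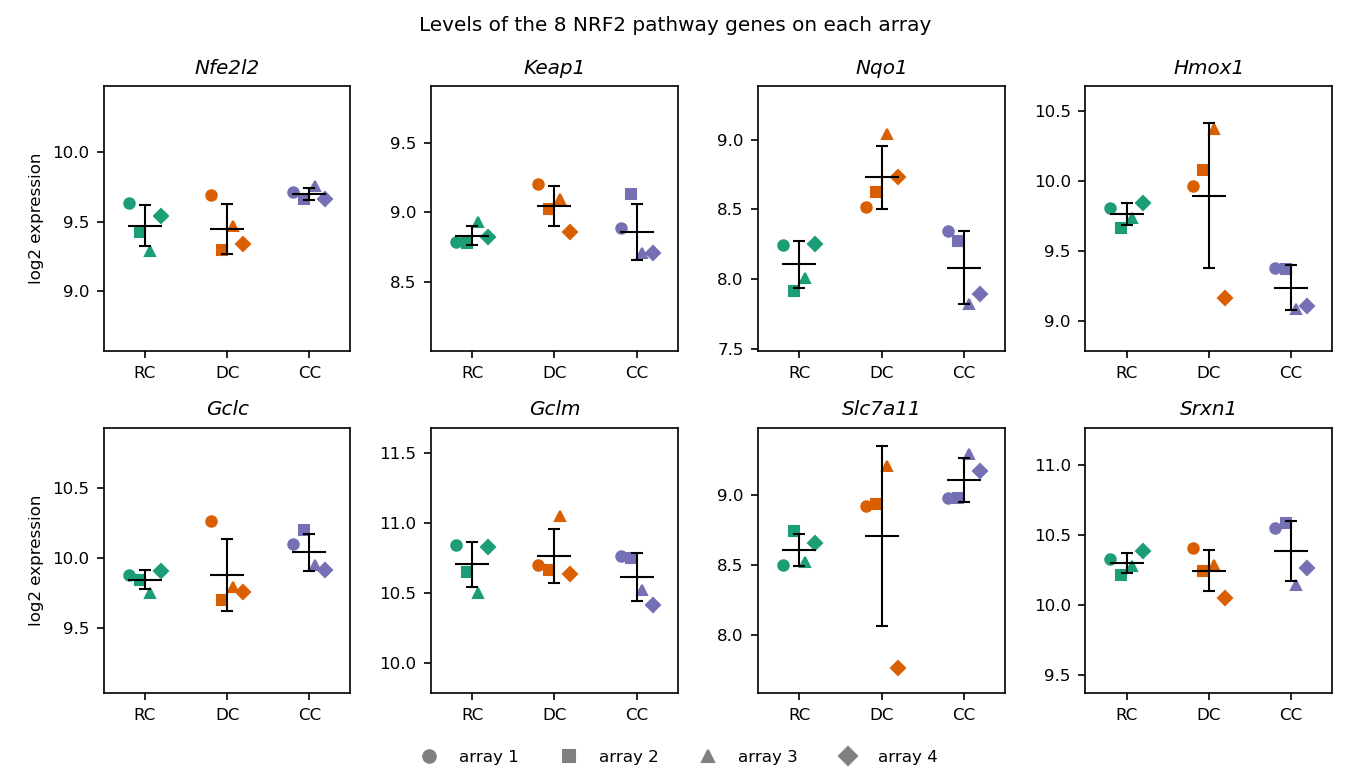
Log2 expression of the 8 genes on each of the 12 arrays, in RC, DC and CC; symbols give the array number, and bars the mean and SD of 4 arrays. The vertical span is the same in each panel. Nqo1 is the panel in which the DC arrays (8.52 to 9.04) lie above all others; for Hmox1 and Slc7a11, DC 4 lies far below DC 1 to DC 3.

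Over the 8 members, 1 was called higher and 0 lower in DC against CC at a limma adjusted p under 0.05. Over all probe sets 2.31% were called higher and 4.32% lower (6.64% in either direction; 823 higher and 1537 lower, or 502 higher and 1698 lower after centring the arrays, and 1203 and 1253 with the interquartile range of the arrays in the fit). In RC against DC 0 members were called higher and 1 lower, where 1.45% and 1.18% of probe sets were (2.63% in either direction). In RC against CC limma called 0 members, with 2 at an unadjusted p under 0.05 and 0 to 2 called over the alternatives, and 0.121% of probe sets were called higher and 0.675% lower (0.796% in either direction). That split, 43 higher and 240 lower, was 272 and 364 with the interquartile range in the fit, 1477 and 1341 with array weights, and 239 and 341 without DC 2, DC 4 and RC 3. The members' median log2 difference was 0.00 for DC minus CC, -0.08 for RC minus DC and -0.05 for RC minus CC, against 0.04, -0.01 and 0.03 over all probe sets. Over the 19938 named genes, 1 probe set a gene, 2.97% were called higher and 6.13% lower in DC against CC. The shares were 1.96% and 1.71% in RC against DC, and 0.166% and 1.07% in RC against CC. These comparisons share arrays, and their values are given side by side as such.

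**Figure D2:**
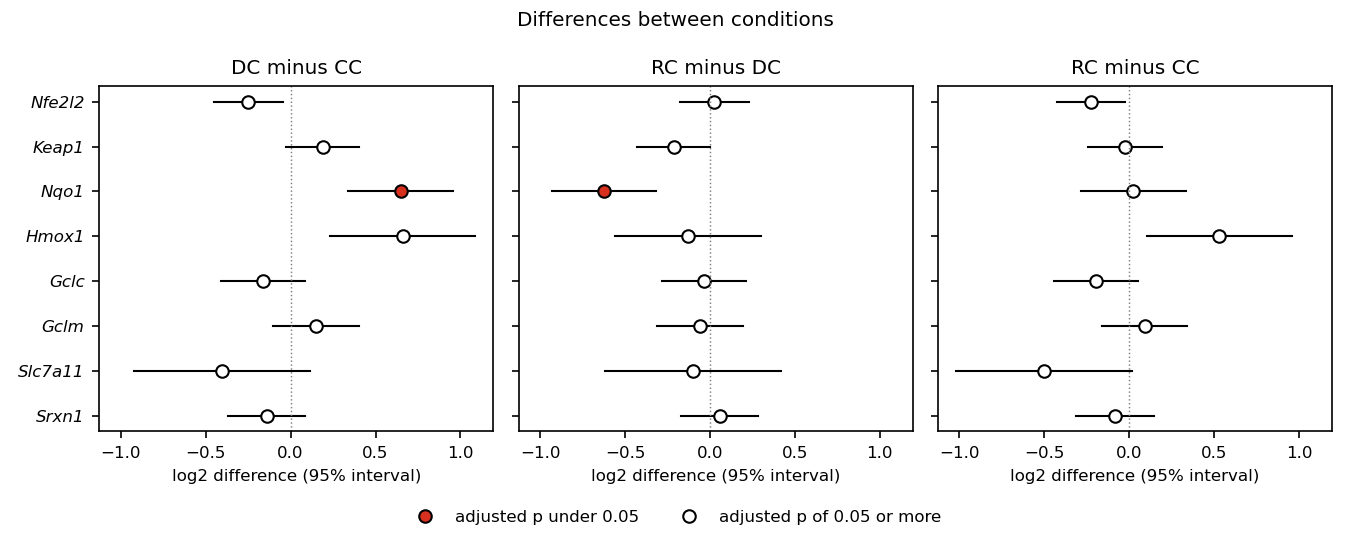
Log2 differences of the 8 genes in the 3 comparisons with 95% intervals from limma; filled points have an adjusted p under 0.05. Nqo1 is the filled point in DC minus CC (0.65) and in RC minus DC (-0.62), and no point is filled in RC minus CC.

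Hmox1, which encodes the inducible heme oxygenase that breaks heme down to biliverdin, iron and carbon monoxide, had the widest spread between condition means, 0.66. It read 9.81, 9.67, 9.74 and 9.85 in RC, 9.96, 10.08, 10.37 and 9.16 in DC, and 9.38, 9.37, 9.09 and 9.10 in CC. All RC arrays and 3 of the 4 DC arrays were above every CC array, and DC 4 was within the CC range. With all arrays neither difference from CC passed: DC minus CC was 0.66 ± 0.20 (SE, n = 4 per group; 95% interval 0.23 to 1.09; limma adjusted p = 0.072) and RC minus CC 0.53 ± 0.20 (95% interval 0.10 to 0.96; adjusted p = 0.378). Without DC 4 both passed, at 0.90 ± 0.11 for DC minus CC (adjusted p = 0.00053; 0.00053 to 0.205 over all alternatives) and at 0.53 ± 0.10 for RC minus CC (adjusted p = 0.0388; 0.0159 to 0.599 over all alternatives). DC 4 enters the RC minus CC value through the shared estimate of the spread alone, and with only RC and CC in the fit the adjusted p was 0.0334. RC minus DC was -0.13, with a 95% interval of -0.56 to 0.30 (adjusted p = 0.887).

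Macrophages also make heme oxygenase, so the immune markers are given beside this gene. The mean level of the 6 immune markers was 7.30 to 7.56 on RC arrays, 7.39 to 7.48 on DC arrays and 7.19 to 7.36 on CC arrays, and 0 of 6 were called in any of the 3 comparisons. Of these markers 2 read above the median of all values and 4 below. Their median was 0.17 for DC minus CC and 0.12 for RC minus CC, against 0.04 and 0.03 over all probe sets. The medians of the exocrine and ductal, fibroblast and endothelial markers were 0.14, 0.17 and 0.13 for DC minus CC. For RC minus CC they were 0.08, 0.08 and 0.09. The part of immune cells in the Hmox1 values was not tested. In RNA of whole cultures, fewer cells of a kind and less RNA per cell cannot be told apart.

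Slc7a11 encodes the light chain of the antiporter that brings cystine into the cell in exchange for glutamate, and both NRF2 and ATF4 are known to drive it. Its levels were 8.50, 8.74, 8.52 and 8.66 in RC, 8.92, 8.93, 9.21 and 7.76 in DC, and 8.98, 8.98, 9.30 and 9.17 in CC. All RC arrays lay below all CC arrays, and 3 of 4 DC arrays lay between them or within the CC range. RC minus CC was -0.50 ± 0.24 (SE, n = 4 per group; 95% interval -1.02 to 0.02; limma adjusted p = 0.572). Without DC 4 it passed at the same difference (-0.50 ± 0.10; adjusted p = 0.0388; 0.0388 to 0.777 over all alternatives), as it did with only RC and CC in the fit (adjusted p = 0.0499). DC minus CC was -0.40 ± 0.24 with all arrays (adjusted p = 0.334) and -0.09 without DC 4.

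On DC 4 Slc7a11 was 1.26 below the mean of DC 1 to DC 3 and Hmox1 0.98 below. Of all 35556 probe sets 11 were further below on this array than Slc7a11, and 37 than Hmox1. Nqo1 was not low there (8.73, against a mean of 8.73 on the other DC arrays). DC 4 was the lowest DC array for 5 of the 8 members, and for 23.7% of all probe sets. In the list of ATF4 and its target genes DC 4 was the lowest DC array for 11 of 12, with a median of -0.51 against the other DC arrays (0.02 over all probe sets). Chac1, which encodes an enzyme that breaks down glutathione, read 9.78 on DC 4 and 10.58 to 10.74 on DC 1 to DC 3, and Atf4 itself 9.54 on DC 4 and 9.87 to 10.06 on the others. Array DC 4 had the narrowest interquartile range of the DC arrays, 2.44, against 2.47 to 2.64 on the others. It also had the highest median of them, 8.05, against 7.98 to 8.03. DC 4 was picked out after the values were seen, and what set it apart was not tested.

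**Figure D3:**
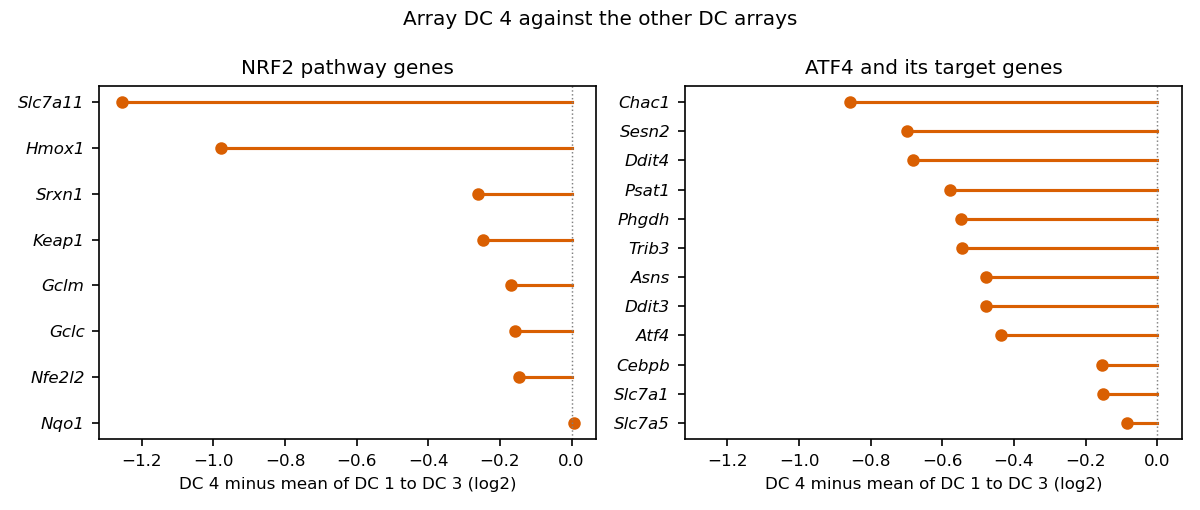
Level on array DC 4 minus the mean of DC 1 to DC 3 (log2) for the 8 NRF2 pathway genes and for the 12 genes of the ATF4 list. Slc7a11 (-1.26) and Hmox1 (-0.98) are the lowest members, Nqo1 is at 0.01, and all 12 genes of the ATF4 list lie below 0.

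The regulators moved less than Nqo1, Hmox1 and Slc7a11, with ranges of the condition means of 0.25 for Nfe2l2 and 0.21 for Keap1. The ranges of Gclc, Gclm and Srxn1 were smaller still, at 0.20, 0.15 and 0.14. Nfe2l2 read 9.63, 9.43, 9.29 and 9.54 in RC, 9.69, 9.30, 9.47 and 9.34 in DC, and 9.71, 9.66, 9.75 and 9.66 in CC. The CC arrays were close together, all RC arrays lay below them, and DC 1 lay within the CC range. DC minus CC was -0.25 ± 0.09 (SE, n = 4 per group; 95% interval -0.45 to -0.05; limma adjusted p = 0.156), and it passed without DC 1 (-0.33; adjusted p = 0.0334; 0.0137 to 0.574 over all alternatives). That difference was -0.13 with the interquartile range of the arrays in the fit and -0.12 without DC 2, DC 4 and RC 3. RC minus CC was -0.23 ± 0.09 (adjusted p = 0.464), and RC minus DC was 0.02, or -0.01 after quantile normalization. Keap1, the adaptor that hands NRF2 to the ligase, read 8.79, 8.78, 8.93 and 8.83 in RC, 9.20, 9.03, 9.10 and 8.86 in DC, and 8.89, 9.13, 8.71 and 8.71 in CC. The groups overlapped in all 3 comparisons. It was at 0.19 ± 0.10 for DC minus CC (adjusted p = 0.293) and at -0.21 ± 0.10 for RC minus DC (adjusted p = 0.43).

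Glutamate-cysteine ligase, the enzyme that limits the rate of glutathione synthesis, has a catalytic subunit from Gclc and a modifier subunit from Gclm. Gclc read 9.88, 9.84, 9.75 and 9.91 in RC, 10.26, 9.70, 9.79 and 9.76 in DC, and 10.10, 10.20, 9.95 and 9.92 in CC. The RC arrays lay just below the CC arrays, and DC 1 was above both groups. DC minus CC was -0.16 ± 0.11 (limma adjusted p = 0.391), and it passed without DC 1 (-0.29 ± 0.08; adjusted p = 0.044; 0.044 to 0.989 over all alternatives). That difference was -0.008 with the interquartile range of the arrays in the fit and -0.012 without DC 2, DC 4 and RC 3. RC minus CC was -0.20 ± 0.11 (adjusted p = 0.679). Gclm read 10.84, 10.65, 10.50 and 10.83 in RC, 10.70, 10.67, 11.05 and 10.64 in DC, and 10.77, 10.75, 10.52 and 10.41 in CC, and the groups overlapped throughout. Its 95% interval for DC minus CC ran from -0.10 to 0.40 (adjusted p = 0.435).

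Srxn1, which encodes the sulfiredoxin that repairs overoxidised peroxiredoxins, read 10.33, 10.22, 10.28 and 10.38 in RC, 10.41, 10.24, 10.28 and 10.05 in DC, and 10.55, 10.58, 10.14 and 10.26 in CC. The spread within CC was wider than any difference between groups. DC minus CC was -0.14, with a 95% interval of -0.37 to 0.09 (adjusted p = 0.415), and its sign turned (0.000915) with the interquartile range of the arrays as a covariate. RC minus CC was -0.08, with an interval of -0.31 to 0.14.

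In counts of arrays that do not overlap, 1 of 8 members (Nqo1) was apart between DC and CC, where 15.3% of all probe sets were, and 1 (Nqo1) between RC and DC, where 6.29% were. Between RC and CC 4 members were apart (Hmox1 higher, and Nfe2l2, Gclc and Slc7a11 lower), where 7.94% of all probe sets were. None of these 4 passed the test with all arrays.

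**Figure D4:**
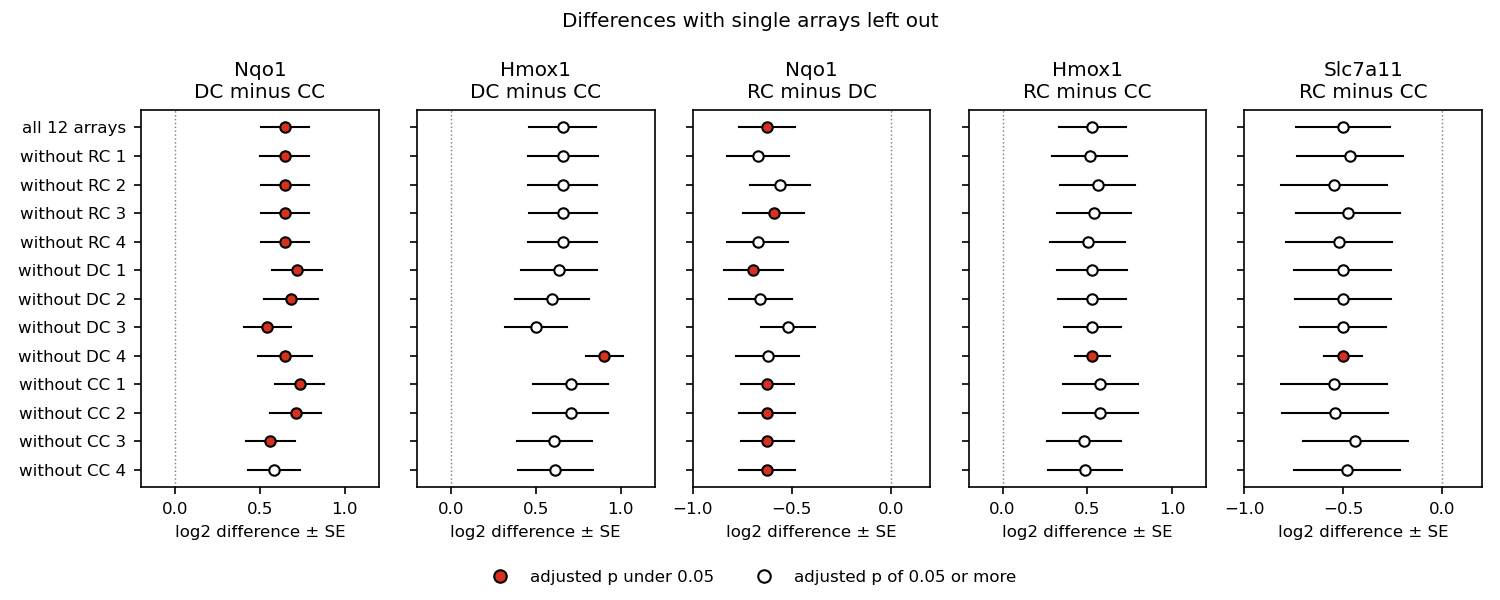
Log2 difference ± SE of 5 values with all 12 arrays and with each array left out in turn; filled points have an adjusted p under 0.05. For Hmox1 (RC and DC against CC) and Slc7a11 (RC against CC) the point without DC 4 is the filled one; for Nqo1 the point without CC 4 is the open one in DC minus CC.

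Within CC, 6 of the 7 members whose pairs were apart were higher on CC 1 and CC 2, the arrays of wider interquartile range (2.73 and 2.75, against 2.58 and 2.57 on CC 3 and CC 4). The share of all probe sets that were higher on CC 1 and CC 2 was not counted, so this is not read as a trait of the members. Their mean levels lay between the percentiles 56.4 (Nqo1) and 92.6 (Gclm) of all probe sets. The gap between the pairs was 0.45 for Nqo1, 0.37 for Srxn1, 0.30 for Keap1, 0.29 for Gclm, 0.28 for Hmox1 and 0.21 for Gclc. Slc7a11 went the other way, by -0.26, and Nfe2l2 was not apart. The lowest DC array of Nqo1, 8.52, was still above CC 1, the highest CC array, at 8.34. The cause of the pairing was not tested.

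The 7 lists of related genes hold 78 genes, of which 75 were measured, and Prdx5, Prdx6 and G6pdx were not analysed here. In DC against CC 6 of the 75 rose and 5 fell, where 2.97% and 6.13% of the 19938 genes did (9.1% in either direction, 1 probe set a gene). The split of the listed genes moved with the scaling, to 2 higher and 6 lower after centring the arrays, 12 and 5 with quantile normalization and 10 and 5 with the interquartile range in the fit, and it was 2 and 5 without CC 4. In RC against DC 2 rose and 4 fell, where 1.96% and 1.71% of genes did (3.67%). In RC against CC 0 rose and 2 fell, where 0.166% and 1.07% of genes did (1.23%). Among 12 partners and regulators of NRF2, limma called 1, Bach2, which encodes a repressor that competes at the same elements. Bach2 was lower in DC than in CC, at -0.48 ± 0.10 (SE, n = 4 per group, limma adjusted p = 0.00867). It rose in RC against DC by 0.43 ± 0.10 (adjusted p = 0.0322), a call lost in 8 of the 12 fits with 1 array left out, all but those without CC 2, DC 1, DC 4 and RC 3 (adjusted p = 0.00125 to 0.131 over all alternatives). The RC minus CC values with the smallest p in this list were 0.15 for Btrc and 0.13 for Nfe2l3, and neither passed. The list's median was 0.04 for DC minus CC, 0.01 for RC minus DC and 0.05 for RC minus CC.

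Of 15 genes of glutathione synthesis, recycling and use, 2 rose and 0 fell in DC against CC. Gstm1, a glutathione S-transferase, was at 9.52 ± 0.17 in RC, 10.53 ± 0.28 in DC and 9.21 ± 0.14 in CC (SD, n = 4). It rose in DC by 1.32 ± 0.13 (2.49-fold; limma adjusted p = 7.6e-05) and fell in RC against DC (-1.01 ± 0.13; adjusted p = 0.00117), while RC minus CC was 0.31 ± 0.13 (adjusted p = 0.496). Gstm genes are near copies of each other, and how far the probe set reads its relatives is not known here. Glrx, a glutaredoxin, rose in DC by 0.42 ± 0.11 (adjusted p = 0.0357), a call lost in 8 of the 12 fits with 1 array left out, all but those without DC 2, RC 1, RC 2 and RC 3 (adjusted p up to 0.107 over all alternatives). In RC against DC 0 rose and 2 fell, Gstm1 and Gstp1, another transferase (-0.42 ± 0.08; adjusted p = 0.00887). Limma called 0 of 15 in RC against CC, and Gss, the second enzyme of glutathione synthesis, was at 0.23 ± 0.07 (adjusted p = 0.24).

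In the thioredoxin and peroxiredoxin list 0 of 8 measured genes rose and 1 fell in DC, with a median of -0.26. This was Txnrd1, the selenium-containing cytosolic thioredoxin reductase (-0.33 ± 0.08; limma adjusted p = 0.0248), whose call was lost without CC 1, CC 2, DC 2 or DC 4 (adjusted p up to 0.125 over all alternatives). In RC against DC limma called 0 of 8, with Txnrd1 at 0.32 ± 0.08 (adjusted p = 0.0613; it passed without RC 3) and Txn2 at 0.24 ± 0.10 (adjusted p = 0.321). In RC against CC none passed, with Txn1 at 0.20 and Txnrd2 at -0.14. Of 7 enzymes that supply NADPH, 0 passed in DC against CC (Tkt at 0.19 and Taldo1 at -0.28, adjusted p = 0.125 and 0.137), and 1 fell in RC against DC. This was Tkt, the transketolase of the pentose phosphate pathway (-0.38 ± 0.06; adjusted p = 0.00632). In RC against CC Tkt was at -0.20 and Taldo1 at -0.19, and neither passed.

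Among 13 genes of heme, ferritin and detoxification 2 rose and 1 fell in DC. Ephx1, the microsomal epoxide hydrolase, was at 8.82 ± 0.19 in RC, 8.92 ± 0.21 in DC and 10.07 ± 0.13 in CC (SD, n = 4). It fell in DC against CC (-1.15 ± 0.12; limma adjusted p = 8.7e-05) and in RC against CC (-1.25 ± 0.12; adjusted p = 0.000489), and it was the one gene of this list called in RC against CC. The aldehyde oxidase gene Aox1 rose in DC by 0.30 ± 0.07 (adjusted p = 0.0159), a call lost without CC 4 (0.0549 and 0.0856 in the alternatives that ended it). Blvrb, a biliverdin reductase, rose by 0.23 ± 0.06 (adjusted p = 0.0476), a call lost in 10 of the 12 fits with 1 array left out, all but those without DC 2 and RC 3 (adjusted p up to 0.166 over all alternatives). In RC against DC limma called 0 of 13, with Aox1 at -0.19 and Cbr3 at -0.18.

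Of 8 superoxide and peroxide enzymes 1 fell in DC. Sod3, the superoxide dismutase secreted from cells, was at 9.56 ± 0.06 in RC, 8.53 ± 0.26 in DC and 10.05 ± 0.07 in CC (SD, n = 4). It fell in DC against CC (-1.52 ± 0.11, or 2.87-fold; limma adjusted p = 4.8e-06) and rose in RC by 1.03 ± 0.11 against DC (adjusted p = 0.000202). RC minus CC was -0.49 ± 0.11 (adjusted p = 0.0621), and it passed without DC 1 or without DC 4. None of the 8 passed in RC against CC (limma; Gpx3 at 0.18). Cat and Sod2, the catalase and the mitochondrial superoxide dismutase, were at 0.12 and 0.02 for DC minus CC and did not pass; they were named after their values were seen.

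Of 12 genes of the ATF4 list 2 rose and 1 fell in DC. Ddit4, an inhibitor of mTORC1 that low oxygen also induces, rose by 0.94 ± 0.14 (limma adjusted p = 0.00132) and fell in RC against DC (-0.93 ± 0.14; adjusted p = 0.00309). Ddit3 rose in DC by 0.41 ± 0.11 (adjusted p = 0.0449), a call lost in 10 of the 12 fits with 1 array left out, all but those without DC 4 and RC 3 (adjusted p up to 0.139 over all alternatives). Slc7a1, a cationic amino acid transporter, fell in DC (-0.52 ± 0.08; adjusted p = 0.00189) and in RC against CC (-0.44 ± 0.08; adjusted p = 0.032). Its call in RC against CC did not hold in 6 of the 12 fits with 1 array left out, those without CC 2 to CC 4, RC 1, RC 2 and RC 4 (up to 0.123 among all alternatives). Atf4 itself was at 0.05 for DC minus CC, and the list's median was -0.05.

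**Figure D5:**
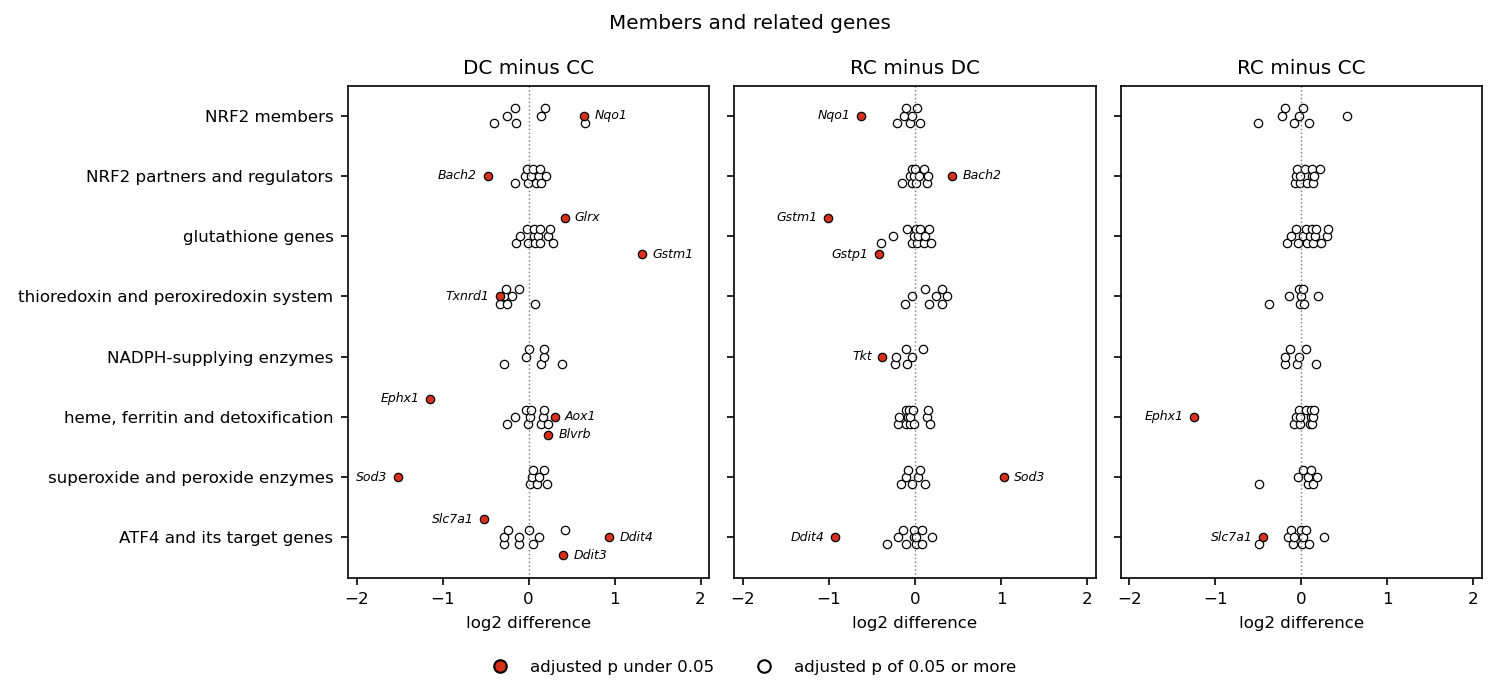
Log2 differences of the 8 members and of the genes of 7 related lists in the 3 comparisons, 1 point a gene; filled and labelled points have an adjusted p under 0.05. Gstm1 (1.32) and Sod3 (-1.52) lie farthest from 0 in DC minus CC, and Ephx1 (-1.25) in RC minus CC.

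The genes whose profile over the 12 arrays was nearest to that of Nqo1, by the root mean square difference of values centred on each gene's mean, were Ctnnbip1 (0.13), Ociad2 (0.13) and Gadd45a (0.14). Their DC minus CC values were 0.66, 0.67 and 0.57. For Hmox1 they were Clybl (0.16), Lonp1 (0.16) and Rora (0.17), with DC minus CC values of 0.82, 0.58 and 0.72. They came from 12101 probe sets with 1 symbol and a mean above the median of all values.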

How the data were processed

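Total RNA of each of 12 Min6 samples had been labelled with biotin and hybridised to its own array, per the labels' protocols. The authors deposited 1 log2 expression value per probe set and array (35556 rows); that the unit is log2 was read from the range, 3.69 to 14.5, and how the authors summarised and normalized the probes is a step not given in the sources used here. Rows were named through the platform annotation: 21789 carry 1 symbol, 1621 several and 12146 none. Of those with 1, 21698 were matched by gene identifier to RefSeq (GRCm38.p6). The values were used as deposited, and 701 rows share their 12 values with another row.

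The 3 condition means of every row were estimated together in limma 3.58.1 (R 4.3.3; 12 arrays, 9 residual degrees of freedom), with two-sided moderated tests. The Benjamini-Hochberg adjustment ran across the 35556 rows of each comparison, and 0.05 was the threshold. Errors of differences are moderated standard errors. The fit was also run on simulated data with independent noise on each array. Those data lack the array pairs and unequal spreads seen here, so they do not speak to the error rate of these calls. Where a listed gene had several rows, that with the highest mean was used. All 8 members are named; from each list each comparison names up to 4 called genes by size of change, or else the 2 of smallest p, and 3 nearest profiles for the 2 members with the widest range of condition means. The members and lists were chosen with earlier results of these data known. The number of arrays limits the precision. Alternatives covered scaling, filters, weights, the samples in the fit, a replicate block and each array left out.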

Additional observations from a re-analysis of the deposited data

Results flagged for a closer look

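Of 24 sets of 4 arrays (8 genes in 3 conditions), 2 held an array whose gap to the nearest of the others, as a share of the whole range, was above Dixon's 95% critical value for 4 samples. Chance flags about 1 in 20 such sets. In DC, Gclc read 10.26 on DC 1 and 9.70 to 9.79 on the others (a share of 0.83). Gclm read 11.05 on DC 3 and 10.64 to 10.70 on the others in DC (a share of 0.849).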

How the results depend on the processing

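Over the 22 alternatives the Nqo1 rise in DC kept its direction in all and passed in 19. Its fall in RC against DC kept its direction in all and passed in 12. No called difference of a member changed sign in any alternative. The count of members called in DC against CC was 2 with quantile normalization, 0 with the replicate block, 4 with array weights and 2 with the interquartile range in the fit; in RC against DC it was 0 with median centring, with only the groups compared, with the replicate block and without DC 2, DC 4 and RC 3; in RC against CC it was 2 with only the groups compared and 1 with array weights. With single arrays left out the ranges were 0 to 3 in DC against CC, 0 to 1 in RC against DC and 0 to 2 in RC against CC. Without DC 2, DC 4 and RC 3 the member called in DC against CC was Hmox1 (0.93, adjusted p = 0.00283), and Nqo1 did not pass (0.70, adjusted p = 0.0701).

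The count of probe sets called in DC against CC, 2360, was 4840 with array weights and 1549 to 3718 with single arrays left out (1570 without CC 1, 1549 without DC 2, 3718 without RC 3). In RC against DC, 936, it was 462 with only these groups, 6413 with array weights, 1737 with the interquartile range and 522 to 2892 with single arrays left out (578 without DC 2, 522, 578, 2892 and 574 without RC 1 to RC 4). In RC against CC, 283, it was 68 with the replicate block, 2818 with array weights, 636 with the interquartile range, 580 without DC 2, DC 4 and RC 3, and 57 to 352 with single arrays left out (91, 105, 64 and 64 without CC 1 to CC 4, 57 without RC 1, 88 without RC 2 and 151 without RC 4). The cause was not tested.

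Differences that were not called and changed sign were Srxn1 in DC against CC (0.000915 with the interquartile range); in RC against DC Nfe2l2 (-0.00628 with quantile normalization, -0.0117 with the interquartile range and -0.0458 without DC 2, DC 4 and RC 3), Gclc (0.0745 with array weights), Gclm (0.0266 with array weights) and Srxn1 (-0.0358 without DC 2, DC 4 and RC 3); and in RC against CC Keap1 (0.0488 with array weights, 0.0382 with the interquartile range), Nqo1 (-0.0232 with median centring, -0.00807 with quantile normalization), Srxn1 (0.0531 with array weights, 0.0140 with the interquartile range) and Gpx3 (-0.0134 with array weights). With single arrays left out, signs turned in RC against DC for Nfe2l2 (-0.0283 to 0.105), Hmox1 (-0.374 to 0.0302), Gclc (-0.0946 to 0.0929), Gclm (-0.104 to 0.0379), Slc7a11 (-0.415 to 0.0662) and Srxn1 (-0.00821 to 0.111), and in RC against CC for Keap1 (-0.0755 to 0.0654) and Nqo1 (-0.0626 to 0.110). The count of listed genes called in DC against CC, 11, moved by over 1.5 times to 17 with quantile normalization, 18 with array weights and 7 without CC 1, CC 2 or CC 4. The count in RC against DC, 6, moved to 10 with quantile normalization, 15 with array weights and 11 with the interquartile range. In RC against CC, 2, it was 15 with array weights (9 higher and 6 lower), 4 with only the groups compared, without DC 4 and without DC 2, DC 4 and RC 3 together, and 1 with quantile normalization, with the replicate block and without any single one of CC 2 to CC 4, RC 1, RC 2 and RC 4.

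Whether the replicate numbers pair the samples was not settled. Same-numbered arrays had correlations of -0.36 to 0.47 between their deviations from the group means, and 2 of 12 arrays correlated best with their own number. So few arrays a group cannot exclude a pairing. As a block, the replicate number gave 1852, 689 and 68 called probe sets and limma adjusted p = 0.0501 and 0.107 for Nqo1 in DC against CC and in RC against DC.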
